A study of Mus musculus with 2 samples.

Results

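The genes examined were 10 members of the Notch pathway: the receptors Notch1, Notch2 and Notch3, the ligands Jag1, Jag2 and Dll1, the glycosyltransferase Lfng, the DNA-binding partner Rbpj and the target genes Hes1 and Hey1. They were chosen by name, as probe sets annotated with 1 of these symbols and no other, and all 10 had at least 1 probe set, out of 18193 genes on the array. A probe set pools several short probes against one transcript into a single signal, and the 10 genes were covered by 19 probe sets. Expression was measured on 2 Affymetrix mouse arrays, each hybridised with RNA from primary keratinocytes grown from newborn C57BL/6 skin. The MED1-null-labelled array holds RNA of keratinocytes from mice called MED1epi-/-, in which K5Cre, a Cre recombinase under the keratin 5 promoter, acts on floxed MED1 alleles in keratinocytes. The control array holds RNA of keratinocytes from MED1flox/flox mice, which the title names as carrying the floxed alleles and the source name calls wild-type. The series title calls the control a littermate. MED1 belongs to Mediator, which connects transcription factors to RNA polymerase II. The labels give 1 culture per genotype and do not give the number of mice behind it, so each group has 1 array and no replicate.

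Notch signalling passes between touching cells. A ligand of the Jagged or Delta family on one cell binds a Notch receptor on its neighbour, and an ADAM protease and then gamma-secretase cut the receptor. The freed intracellular part enters the nucleus, joins RBPJ and Mastermind proteins, and switches on target genes such as those of the HES and HEY families. In the epidermis the pathway is known for acting as basal keratinocytes leave the basal layer and begin to differentiate.

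The targeted gene and some whole-array facts bear on every value that follows. Med1 did not read lower on the MED1-null-labelled array. Each of its 6 measured probe sets was higher there, and the brightest gave 1039 on the MED1-null-labelled array and 462.7 on the control array. The labels do not say which part of the gene was deleted, so a probe set outside that part checks nothing. Each direction given here is that of the labels, and if the labels of the 2 arrays were exchanged, every log2 ratio would change sign and every higher would read lower. Sex-linked RNA differed as well, since Xist read 55.7 on the MED1-null-labelled array and 5461 on the control array, while the Y-linked Eif2s3y read 2164 on the MED1-null-labelled array and 4.2 on the control array. Differences tied to sex and to the genotype label therefore cannot be told apart. Of 6 keratinocyte markers, 5 were measured on both arrays and Krt15 was below the floor defined next on both. Krt14 read 36849 on the MED1-null-labelled array and 32905 on the control array. Krt5 read 32220 on the MED1-null-labelled array and 26821 on the control array. All 5 measured markers read higher on the MED1-null-labelled array, with a median log2 ratio of 0.26, and none was past 2-fold. Over all measured genes, 57.1% had a log2 ratio above 0. The summed signals of the 6 markers were 129189 on the MED1-null-labelled array and 105333 on the control array. The 3′ over 5′ signal ratio, a measure of RNA integrity, was alike for Gapdh (0.767 on the MED1-null-labelled array and 0.762 on the control array). It was also alike for beta-actin (1.14 on the MED1-null-labelled array and 1.13 on the control array). For the transferrin receptor it was not (2.37 on the MED1-null-labelled array and 1.76 on the control array).

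Low signals of this array type are noisy. Signals under 67.7, the median of all probe sets other than controls over both arrays, were therefore raised to that floor before ratios were taken, and a gene under it on both was treated as not measured. Each ratio is that of the MED1-null-labelled array over the control array, on the log2 scale, for the gene's probe set with the highest mean signal. With 1 array per group there is no test and no p-value. The only spread available was that among a gene's own probe sets, whose pooled SD was 0.31 log2 units (1.24-fold) over 4916 genes. It covers neither mice nor cultures, and the precision is limited by the number of arrays.

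Of the 10 genes, 9 were measured. Notch1 and Lfng were at least 2-fold higher on the MED1-null-labelled array, none was at least 2-fold lower, and the other 7 lay within 2-fold. Over all 11621 measured genes, 1.63% were 2-fold or more higher and 2.23% were 2-fold or more lower. The 2 of 9 genes above 2-fold make 22.2%, a share that rests on 2 genes of a list chosen with these results known. The median log2 ratio of the 9 was 0.09, beside 0.06 over all measured genes, and 6 of the 9 were above 0 (66.7%), beside 57.1% of all measured genes. By the brightest probe set of each gene, the middle of the group thus lay close to that of all genes. With the mean over a gene's probe sets the members' median was 0.45, beside 0.07 over all genes, and with the median over probe sets 0.50, beside 0.07, through the dimmer probe sets of Notch2 and Jag1. RNA per cell and the share of a kind of cell in the culture cannot be told apart in such bulk samples.

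**Figure D1:**
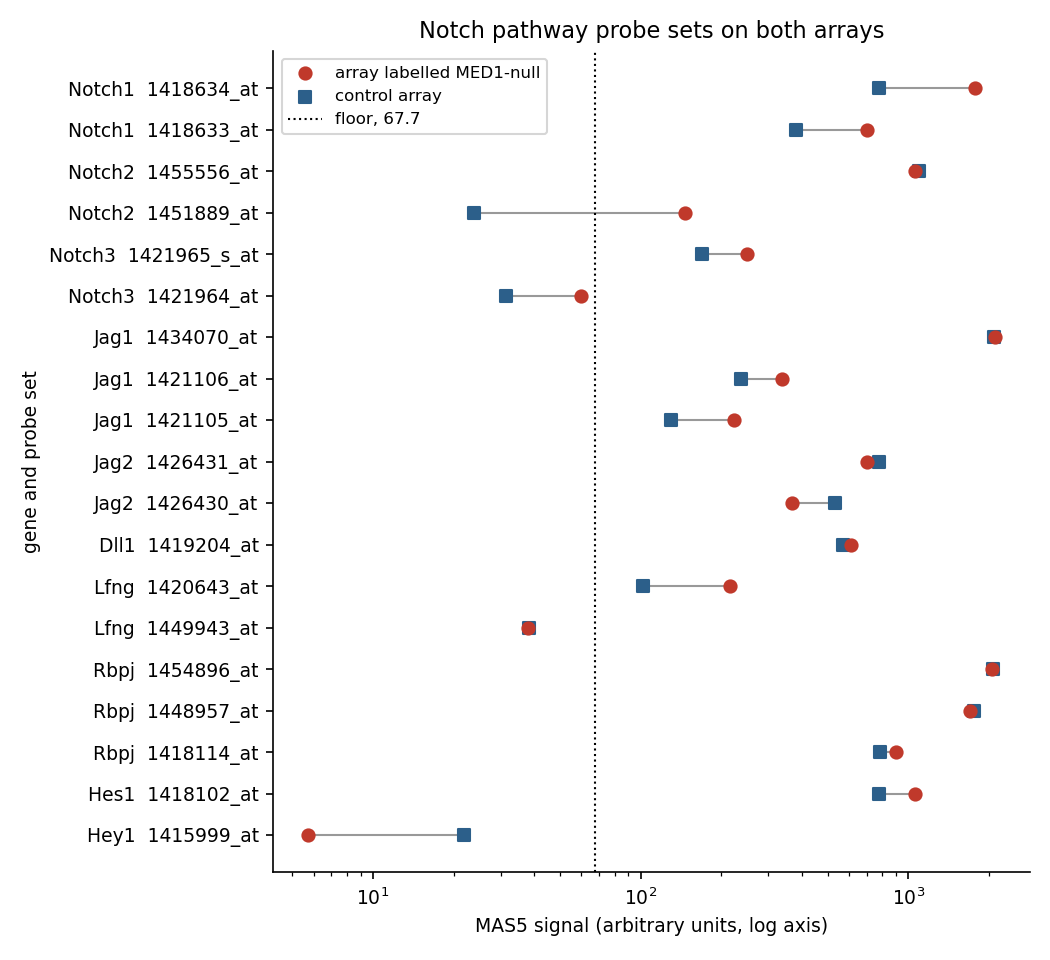
Signal of every probe set of the 10 Notch pathway genes on the MED1-null-labelled array (circles) and on the control array (squares), in arbitrary units on a log axis, joined by a line, with the floor of 67.7 dotted. Both Notch1 probe sets stand clearly to the right on the MED1-null-labelled array, the Rbpj pairs nearly coincide, and Hey1 lies left of the floor on both arrays.

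Promoter sequences of Notch1 and Lfng are shown because these were the genes at least 2-fold apart, and because RBPJ, the DNA-binding partner of the pathway, has a well-described recognition core. The stretches run from 250 bases before to 50 after the gene's start, 5′ to 3′ on the gene's strand, from RefSeq on build GRCm38.p6. Capitals mark TGGGAA, the RBPJ core searched for, or its reverse complement TTCCCA. The Notch1 stretch lies at chr2:26503773-26504072 on the minus strand and the Lfng stretch at chr5:140607091-140607390 on the plus strand.
Notch1: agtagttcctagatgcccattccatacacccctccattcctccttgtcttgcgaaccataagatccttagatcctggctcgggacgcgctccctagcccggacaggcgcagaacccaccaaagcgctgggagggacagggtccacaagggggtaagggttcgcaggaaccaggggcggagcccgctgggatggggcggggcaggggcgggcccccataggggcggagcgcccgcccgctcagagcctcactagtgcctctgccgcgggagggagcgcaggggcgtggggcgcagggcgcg
Lfng: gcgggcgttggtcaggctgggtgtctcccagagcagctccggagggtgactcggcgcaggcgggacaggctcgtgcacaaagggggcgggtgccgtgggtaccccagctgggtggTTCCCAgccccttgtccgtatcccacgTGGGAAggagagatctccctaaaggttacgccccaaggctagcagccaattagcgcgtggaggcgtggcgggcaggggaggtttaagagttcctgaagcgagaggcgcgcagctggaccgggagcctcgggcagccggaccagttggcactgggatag
The Notch1 stretch held no match. Lfng held 2, the first starting 135 bases before the gene's start on the opposite strand and the second 108 bases before it on the gene's own strand, where the letter ahead of the core also completes the longer form GTGGGAA. On either strand the core occurs in 25.6% of 32851 promoter stretches of this length, and 3.79% hold 2 or more, while the longer form, which contains the core, occurs in 6.38%. Promoters of 8 of the 10 genes were matched by symbol (all but Hes1 and Hey1), and besides Lfng the core was found in that of Rbpj. A match is a description of letters, and binding of RBPJ was not measured in these cells.

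The receptors differed among themselves. Notch1, the main receptor of epidermal differentiation, read 1779 on the MED1-null-labelled array and 773.8 on the control array with its brighter probe set. The signal was thus 2.30-fold higher (log2 ratio 1.20), which is 3.93 times the pooled SD between probe sets and rank 98 from the top among the 11621 measured genes. The dimmer Notch1 probe set read 701.6 on the MED1-null-labelled array and 380.0 on the control array, which is 1.85-fold higher (log2 ratio 0.88). Both probe sets went the same way, and both exceeded the spread between probe sets.

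Notch2, a related receptor, read 1057 on the MED1-null-labelled array and 1096 on the control array with its brighter probe set (log2 ratio -0.05). Its dimmer probe set read 146.3 on the MED1-null-labelled array and 23.8, below the floor, on the control array, at least 2.16-fold higher. The Notch2 probe sets therefore disagreed, and the direction of Notch2 depended on which was used. Averaged over both, with the control value of the dimmer one at the floor, its log2 ratio was 0.53. Notch3, a receptor best known from vascular smooth muscle, read 248.6 on the MED1-null-labelled array and 169.7 on the control array with a probe set whose suffix marks sequence shared between transcripts (1.46-fold higher, log2 ratio 0.55, 1.80 times the pooled SD). The second Notch3 probe set, at 60.0 on the MED1-null-labelled array and 31.3 on the control array, was below the floor on both arrays.

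The ligands differed little between the arrays by the probe sets used. Jag1, a Jagged ligand, read 2114 on the MED1-null-labelled array and 2088 on the control array (log2 ratio 0.02). The dimmer Jag1 probe sets were higher on the MED1-null-labelled array, at 337.4 there against 238.0 on the control array (1.42-fold) and at 223.7 there against 130.3 on the control array (1.72-fold). The 3 probe sets of Jag1 were all above 0 but differed in size, from 0.02 to 0.78 in log2 ratio, and the lowest turned to -0.05 once the arrays were rescaled by their median ratio. Jag2, the other Jagged ligand, was lower by both of its probe sets, which read 697.9 and 366.7 on the MED1-null-labelled array and 777.4 and 530.7 on the control array. The differences were 1.11-fold and 1.45-fold, and the one of the probe set used, at 0.51 times the pooled SD, lay within the spread between probe sets. Dll1, the Delta ligand of keratinocytes, read 608.5 on the MED1-null-labelled array and 571.7 on the control array with its single probe set (log2 ratio 0.09), also within that spread.

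Lfng, lunatic fringe, adds sugars to Notch receptors in the Golgi and so changes which ligands they respond to. Its measured probe set read 215.4 on the MED1-null-labelled array and 102.2 on the control array, 2.11-fold higher (log2 ratio 1.08, 3.52 times the pooled SD, rank 151 from the top). The second Lfng probe set read 38.0 on the MED1-null-labelled array and 38.2 on the control array, below the floor on both arrays, so the difference rests on 1 probe set. Lfng was also dim: of measured genes with a mean signal up to 190.3, 2.82% were at least 2-fold higher, against 0.895% of those between 585.6 and 1573.8, the range that holds Notch1. The log2 ratio of Lfng was 0.96 after quantile normalisation and 0.94 after a lowess curve was subtracted, both below 2-fold, and 0.75 with 64 added to each signal in place of the floor.

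Rbpj, which carries the receptor's intracellular part to DNA, had the smallest range between probe sets among the 5 members with several measured. They read 2051, 1695 and 899.7 on the MED1-null-labelled array and 2077, 1753 and 781.9 on the control array. Their log2 ratios ran from -0.05 to 0.20, all within the spread between probe sets. The direction of so small a difference changed when the mean over its probe sets was taken.

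The targets gave 1 measured gene. Hes1, a transcriptional repressor and a direct Notch target in many tissues, read 1059 on the MED1-null-labelled array and 776.9 on the control array, 1.36-fold higher (log2 ratio 0.45, 1.46 times the pooled SD). It stayed within 2-fold and ranked 1563 from the top. Hey1, a related repressor, read 5.7 on the MED1-null-labelled array and 21.8 on the control array, below the floor on both arrays, and its direction cannot be read from these values.

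**Figure D2:**
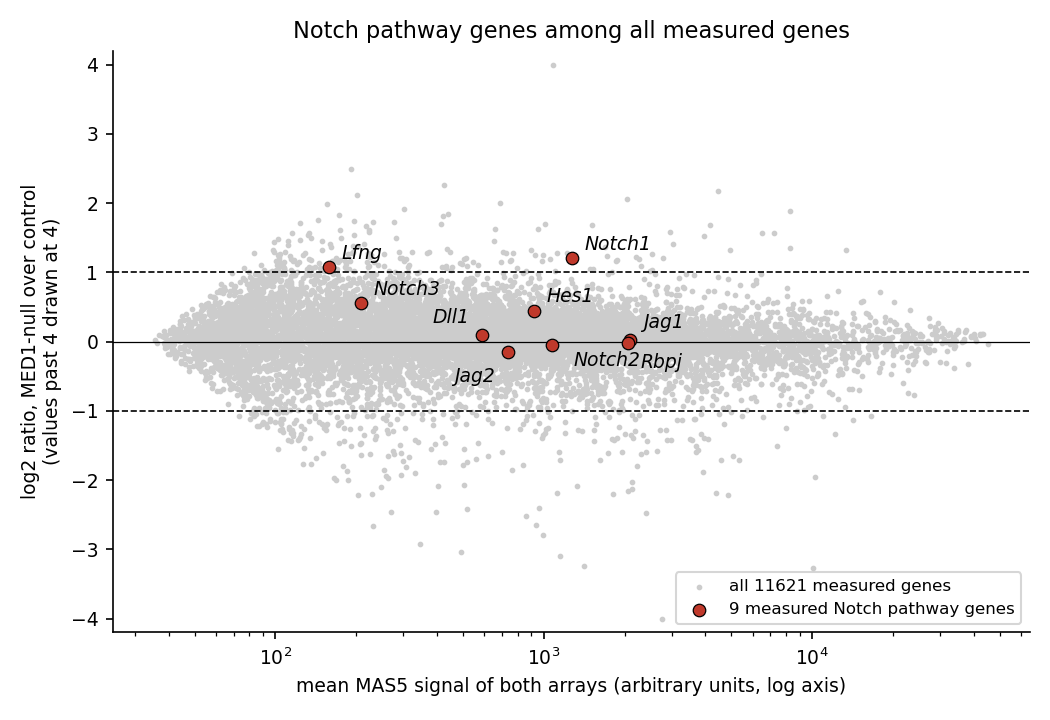
Log2 ratio of the MED1-null-labelled array over the control array against the mean signal of both arrays (arbitrary units, log axis) for the 11621 measured genes (grey) and the 9 measured Notch pathway genes (red), with 2-fold dashed. Notch1 and Lfng lie above the upper line, Lfng among dim genes where the grey cloud is wide, and the other 7 lie between the lines.

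Probe sets of a gene agreed in direction about as often for these genes as for genes in general. Of the 5 members with several measured probe sets, 3 had all in the same direction (Notch1, Jag1 and Jag2), or 60%, beside 55.6% of 5516 genes. Of the 16 measured probe sets of the members, 11 were above 0 and 5 below. Of these 16, 3 were at least 2-fold higher, namely 1 each of Notch1, Notch2 and Lfng, and none was at least 2-fold lower, where 1.82% and 2.08% of all measured probe sets were. Notch1 was at least 2-fold higher in each of the 11 processing settings tried, with log2 ratios from 1.04 to 1.20. Hes1 was above 0 in each of the 11 (0.38 to 0.45) and Jag2 below 0 in each (-0.34 to -0.14). Hes1 rests on 1 probe set, above every floor tried, so other floors and probe set rules could not change its ratio. For Notch1 and Jag2 the probe set used was also above every floor tried. Other floors, and leaving out probe sets of shared sequence, therefore could not change their ratios either. Notch3 was above 0 in the 9 settings in which it was measured (0.42 to 0.55). Rbpj, Notch2 and Jag1 crossed 0 with the setting.

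**Figure D3:**
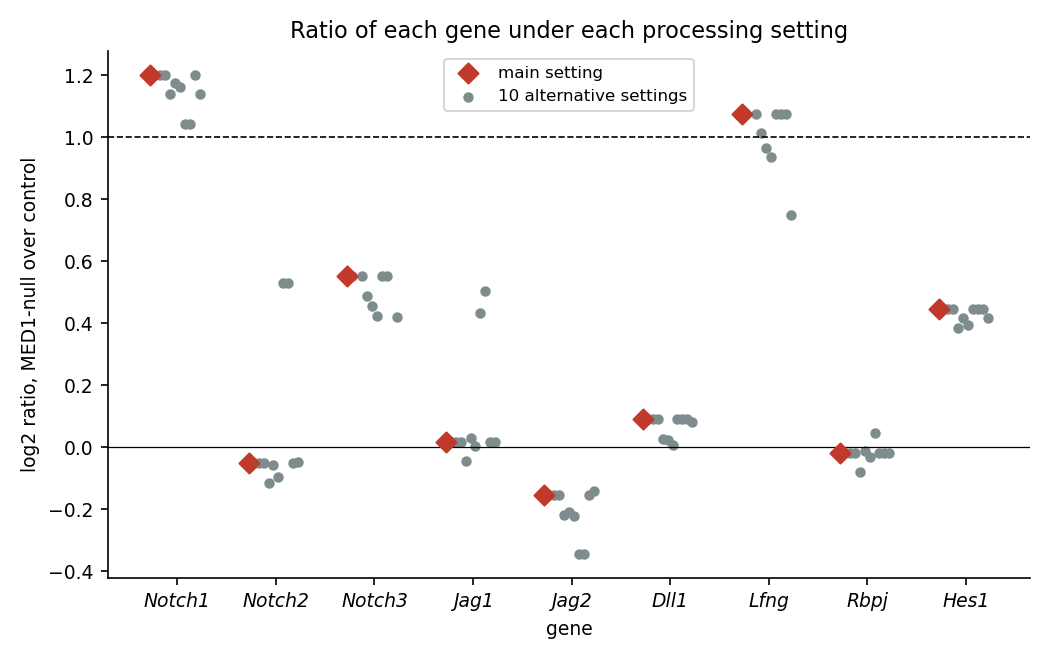
Log2 ratio of the 9 measured Notch pathway genes under the main setting (red diamonds) and 10 alternative settings (grey points), with 2-fold dashed. All Notch1 points lie above 2-fold, those of Lfng on both sides of it, and the Notch2 points at 0.53 are averages over its probe sets.

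The wider pathway was described from a list of 56 further genes grouped by role. Of these, 42 were measured, 9 were below the floor on both arrays and 5 had no probe set with their symbol alone. Only Dtx3 of the 42 was at least 2-fold higher and none was at least 2-fold lower, beside 1.63% and 2.23% of all measured genes, though 4 of the 42 have a bound only. The median log2 ratio was 0.11, with 24 above 0 and 18 below, so that this list as a whole lay near all genes too.

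The list of ubiquitin ligases and adaptors of ligands and receptors held 13 genes, of which 7 were above 0 and 6 below, with a median of 0.03. Whether each of them acts on Notch in these cells was not tested. Dtx3, a member of the Deltex family of ubiquitin ligases, read 312.9 on the MED1-null-labelled array and 128.4 on the control array, 2.44-fold higher by its single probe set. The log2 ratio of 1.29 placed it 69 from the top. It became 0.97 with 64 added in place of the floor, and with a floor at percentile 75 of the signals Dtx3 was not measured. Dtx2, chosen after its values were seen, read 1183 and 666.1 on the MED1-null-labelled array and 688.9 and 387.3 on the control array, so that both probe sets were 1.72-fold higher. Both carry suffixes that mark shared sequence, and without such probe sets Dtx2 was not measured. Of the 5 Deltex genes, a grouping made after the values were seen, 4 were above 0, beside 57.1% of all measured genes, and Dtx1 was at -0.05. A count over a grouping chosen in this way is a description and tests nothing. The 3 rescalings of the arrays left the count at 4, but they moved the Deltex median only from 0.62 to between 0.49 and 0.56. They therefore add no separate check. Dtx4 has a bound only, since its control signal of 53.5 lay below the floor, and the dimmer probe set of Dtx3l went the other way at 68.0 on the MED1-null-labelled array against 87.5 on the control array. Mib1, which ubiquitinates ligands in the signal-sending cell, read 1022 on the MED1-null-labelled array and 1102 on the control array, and Numb, an inhibitor of Notch, read 1571 on the MED1-null-labelled array and 1541 on the control array. Both of these were also chosen after their values were seen, and both lay within the spread between probe sets.

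The proteases that cut the receptor lay within 2-fold for all 7 measured genes, with 4 above 0, 3 below and a median of 0.11. Psenen, a small subunit of gamma-secretase, read 4374 on the MED1-null-labelled array and 6437 on the control array, 1.47-fold lower (log2 ratio -0.56). Ncstn, nicastrin, another gamma-secretase subunit, read 486.4 on the MED1-null-labelled array and 622.2 on the control array (log2 ratio -0.36). Both were below 0 in each of the 11 settings, and both exceeded the pooled SD of 0.31. Each rests on 1 measured probe set, above every floor tried, so other floors and probe set rules could not change its ratio.

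Of 4 glycosylation genes, 3 were within 2-fold and Mfng, manic fringe, has a bound only, with a median of 0.11. Mfng, named after its values were seen, read 15.7, below the floor, on the MED1-null-labelled array and 72.4 on the control array, and it was past 2-fold lower with a lower floor or none. Poglut1, which adds glucose to Notch, read 686.6 on the MED1-null-labelled array and 603.2 on the control array (log2 ratio 0.19), and Pofut1, which adds the fucose that fringe proteins extend, read 328.2 on the MED1-null-labelled array and 292.5 on the control array (log2 ratio 0.17). The Pofut1 probe sets ran from -0.05 to 0.32. Among other ligands and receptors, Notch4 and Dlk1 were not measured. Dlk2, an atypical ligand, read 457.9 on the MED1-null-labelled array and 298.0 on the control array (log2 ratio 0.62), but its other probe set read 257.7 on the MED1-null-labelled array and 384.6 on the control array (log2 ratio -0.58), so Dlk2 has no settled direction. Dll3 read 92.7 on the MED1-null-labelled array and 83.5 on the control array, close to the floor.

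Nuclear partners of RBPJ were evenly divided, with 6 of 12 measured genes above 0 and 6 below, a median of 0.04 and none past 2-fold. Cir1, a corepressor that binds RBPJ, read 208.3 on the MED1-null-labelled array and 300.4 on the control array (log2 ratio -0.53). Kat2b, a histone acetyltransferase and coactivator, read 1055 on the MED1-null-labelled array and 1444 on the control array (log2 ratio -0.45). A dimmer Kat2b probe set read 89.0 on the MED1-null-labelled array and 180.4 on the control array, 2.03-fold lower, and the remaining one was under the floor on both arrays.

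Of 8 other target and HES or HEY family genes, 5 were below the floor on both arrays, among them Hes5 and Hey2. Nrarp, a Notch target that feeds back on the pathway, read 750.0 and 422.8 on the MED1-null-labelled array and 579.4 and 373.6 on the control array. Both of its probe sets were higher, by 1.29-fold and 1.13-fold, and the log2 ratio of the gene ran from 0.28 to 0.37 over the 11 settings, those that average its probe sets included. Hes6, which counteracts Hes1 in mouse neural cells, was lower by both probe sets, with 224.9 on the MED1-null-labelled array against 288.9 on the control array for the brighter one (log2 ratio -0.36). Heyl, a relative of Hey1 named after its values were seen, read 87.6 on the MED1-null-labelled array and 69.0 on the control array (log2 ratio 0.34), close to the floor. None of the 3 measured genes of this list was 2-fold apart.

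**Figure D4:**
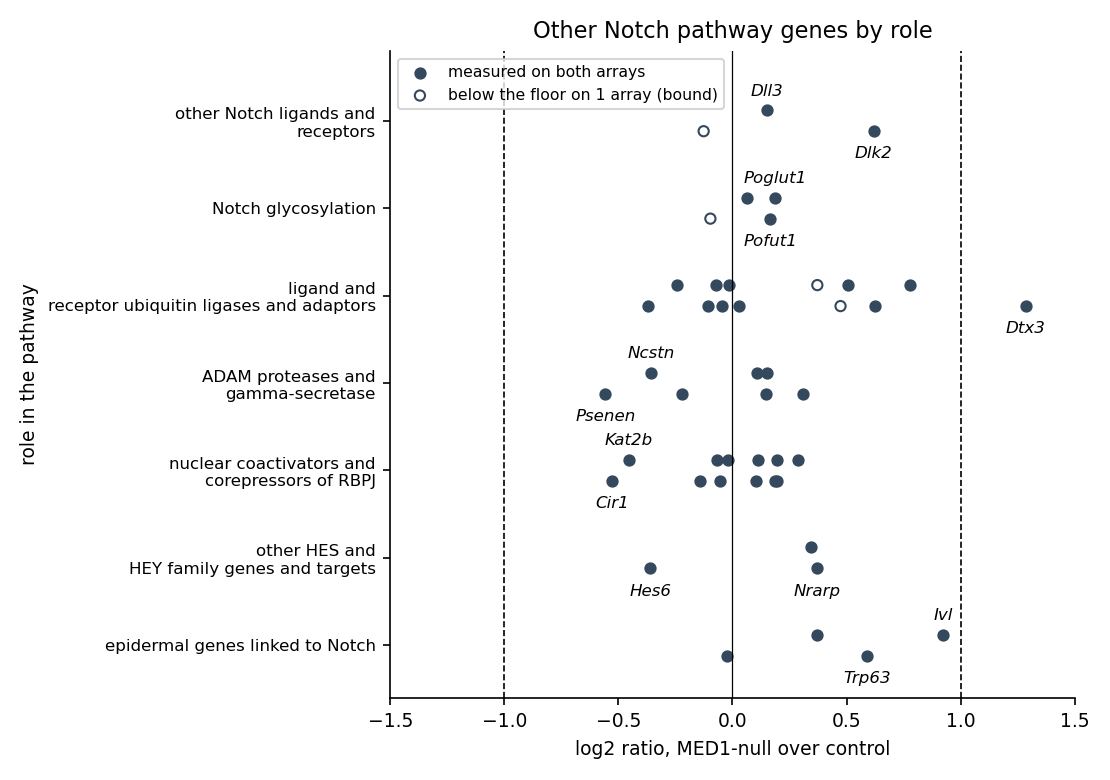
Log2 ratio of the MED1-null-labelled array over the control array for the measured further pathway genes by role and for epidermal genes linked to Notch, with 2-fold dashed; open points are bounds, where 1 array was below the floor. Dtx3 at 1.29 is the sole point past 2-fold, and the points of each role lie on both sides of 0.

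Epidermal genes linked to Notch were examined beside it: Ivl, Krt1 and Krt10, which mark differentiating layers, the transcription factor Trp63, and Cdkn1a. Of these 5, 4 were measured and all 4 lay within 2-fold, with 3 above 0 and a median of 0.48. Ivl, the cornified envelope protein involucrin, read 708.5 on the MED1-null-labelled array and 373.8 on the control array, 1.90-fold higher (log2 ratio 0.92). Its other probe set read 140.1 on the MED1-null-labelled array and 59.7 on the control array, at least 2.07-fold higher. Trp63, the basal keratinocyte factor p63, which is known to oppose Notch signalling in keratinocytes, read 11736 on the MED1-null-labelled array and 7798 on the control array (log2 ratio 0.59). All 4 Trp63 probe sets were higher, with log2 ratios from 0.59 to 1.11. Krt10 and Cdkn1a were named after their values were seen. Krt10 read 251.3 on the MED1-null-labelled array and 194.6 on the control array, and Cdkn1a, a cell cycle inhibitor, read 13511 on the MED1-null-labelled array and 13734 on the control array. Krt1 was below the floor on both arrays.

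Markers of other cells that use Notch were read on the same arrays. All 8 melanocyte markers were measured, 6 of them below 0, with a median log2 ratio of -0.33 and summed signals of 19507 on the MED1-null-labelled array and 25056 on the control array. Tyrp1, a pigment enzyme, read 6715 on the MED1-null-labelled array and 9346 on the control array, and Dct read 6584 on the MED1-null-labelled array and 7568 on the control array. Kit, named after its values were seen, read 136.8 on the MED1-null-labelled array and 409.5 on the control array, 2.99-fold lower. It was the only melanocyte marker past 2-fold. Tyr, also named after its values were seen, was above 0, but its probe sets ran from -1.26 to 0.25 in log2 ratio. Melanocyte transcripts were thus present on both arrays. They read lower on the MED1-null-labelled array for 6 of the 8 markers, beside 4984 of all 11621 measured genes. Among the 6 markers, Dct (log2 ratio -0.20) and Mitf (-0.11) lay within the pooled SD of 0.31 between probe sets. Sox10 had a log2 ratio of 0.01, and its probe sets ran up to 0.54. Mitf and Sox10 were picked out with their values already known. Of 8 fibroblast markers, 6 read under the floor on the MED1-null-labelled array and 3 on the control array, with summed signals of 445.7 on the MED1-null-labelled array and 714.8 on the control array. Pdgfra read 126.2 on the MED1-null-labelled array and 156.6 on the control array and Col1a2 read 115.3 on the MED1-null-labelled array and 80.3 on the control array. Of the 5 measured fibroblast markers, 4 were below 0, with a median log2 ratio of -0.74, and Col1a2 alone was above 0. Of these 5, 3 have a bound only. All 6 smooth muscle and pericyte markers, Des and Rgs5 among them, were below the floor on both arrays. All 7 endothelial markers were below the floor on the MED1-null-labelled array and 5 on the control array. Kdr read 51.6 on the MED1-null-labelled array and 80.5 on the control array, and Cldn5 read 42.7 on the MED1-null-labelled array and 73.6 on the control array. Of 7 immune markers, 5 were below the floor on the MED1-null-labelled array and 4 on the control array, with Csf1r at 228.9 on the MED1-null-labelled array and 164.0 on the control array and Lyz2 at 121.5 on the MED1-null-labelled array and 104.0 on the control array. The 3 Csf1r probe sets disagreed in direction, with log2 ratios from -0.68 to 0.48. Merkel cell markers were below the floor at 3 of 4 on the MED1-null-labelled array and 4 of 4 on the control array, with Atoh1 at 80.1 on the MED1-null-labelled array and 52.9 on the control array and Isl1 at 23.6 on the MED1-null-labelled array and 17.9 on the control array. The part of these cells in the Notch values was not tested.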

How the data were processed

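Gene expression was measured on 1 array per group, with the groups taken from the genotype in the labels. The values deposited by the authors are linear intensities, 1 for each probe set, from MAS5 per the submitters' processing notes, in Affymetrix software whose version is not given in the sources used here. From the values, both arrays had been scaled as a whole (means of 496.8 on the MED1-null-labelled array and 496.9 on the control array after trimming 2% at each end). Symbols came from GEO's platform annotation: 34945 of 45101 probe sets had 1 symbol, 932 several and 9160 none, with 64 controls. Of those with 1 symbol, 34741 were found in RefSeq's gene table.

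With Python 3.11.15 and pandas 2.3.3, signals under the pooled median of 67.7 were raised to it, log2 ratios were taken, and genes at 2-fold or more were counted. The steps were tested on simulated data in which only bright genes were changed, so genes as dim as Lfng and Dtx3 were not covered. With 1 array per group no test was possible. Named genes are all members, Med1, per pathway list up to 4 genes past 2-fold (otherwise the 2 farthest from 0), and per marker list the 2 brightest; others are marked as named after their values were seen. The members, lists and alternatives were chosen with earlier results of these data known. Alternatives were other floors, 3 rescalings (statsmodels 0.14.6 for lowess), other probe set rules and 64 added to each signal. One further epidermal gene of the original list is not reported here, and the counts leave it out.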

Additional observations from a re-analysis of the deposited data

How the results depend on the processing

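With other settings the count of members at least 2-fold higher was 1 (Notch1 alone) when the floor was percentile 75 of the signals (434.6), after quantile normalisation, after lowess and with 64 added in place of the floor, against 2 otherwise. The count at least 2-fold lower was 1 with no floor, from Hey1, whose signals are both under 67.7, and 0 otherwise. The members' median log2 ratio of 0.09 became 0.45 with the mean and 0.50 with the median over a gene's probe sets, through Notch2 (0.53 under both) and Jag1 (0.43 and 0.50), and lay between 0.01 and 0.05 under the other 8. The number of other pathway genes measured was 42 in the main setting, 25 at the percentile 75 floor and 47 at a percentile 25 floor (18.1). It was 51 with no floor or with 64 added, and 35 without probe sets of shared sequence. Among those measured, the count at least 2-fold higher was 0 at the percentile 75 floor and with 64 added, and 2 with no floor (Dtx3 and Hes3). The count lower was 2 at the percentile 25 floor (Mfng and Maml2) and 1 without probe sets of shared sequence (Kat2b), against 0. With no floor it was 4 (Mfng, Maml2, Hes2 and Hey2). Hes3, Maml2, Hes2 and Hey2, named after their values were seen, were below 67.7 on both arrays and are not among the 42. Over all genes, 6.98% were at least 2-fold higher and 5.82% lower at the percentile 25 floor, 12.3% and 10.5% with none, 0.703% and 1.52% at the percentile 75 floor, and 0.753% and 1.14% with 64 added, and the 3 rescalings moved the higher share to between 1.24% and 1.37% and the lower share to between 2.60% and 2.77%. Why these settings moved the values was not tested, beyond fewer genes being measured at the higher floor. No paired analysis was possible because each group has 1 array. Signals near the floor limit Lfng, Notch3, the dimmer probe set of Notch2 and Hey1.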
